A study of Mus musculus with 15 samples.

Results

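A set of 30 genes of cholesterol and fatty acid synthesis was followed across 5 conditions of mouse embryonic stem cells (mESCs). They are a fixed list of gene symbols, and all 30 are among the 23412 genes listed in each of the 15 libraries. Msmo1 was found under its older symbol Sc4mol, the other 29 under the listed symbol. The sterol branch holds 20 genes and the fatty acid branch 10, and all 30 passed the expression filter. STAG1 and STAG2 are alternative subunits of cohesin, the ring complex that holds sister chromatids together and shapes chromosome loops. Polyadenylated RNA was sequenced from v6.5 mESCs, a male line grown on gelatin, of wild-type, Stag1-/- and Stag2-/- genotype. Every library comes from transfected cells, harvested 48 h after 50 nM of siRNA. Wild-type and Stag2-/- cells received either siGLO, the transfection control, or siStag1, an siRNA against Stag1, and Stag1-/- cells received siGLO. Each condition has 3 replicates. Each knockout is represented by 1 CRISPR clone, so the effect of the deletion and other properties of that clone cannot be told apart.

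Cells build cholesterol from acetyl-CoA through mevalonate, farnesyl diphosphate, squalene and lanosterol, and build fatty acids from the same precursor. Both branches are switched on by the sterol regulatory element-binding proteins (SREBPs), membrane-bound transcription factors encoded by Srebf2, which favours sterol genes, and Srebf1, which favours fatty acid genes. When sterols are scarce the escort protein SCAP carries SREBPs to the Golgi for cleavage, and when sterols are plentiful INSIG proteins hold SCAP in the endoplasmic reticulum. Dividing cells such as mESCs need both products for new membranes.

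Between 14982560 and 19070126 counts fell on genes per library, and 14508 genes were tested with edgeR's quasi-likelihood test over all 15 libraries. Values after ± are SDs beside levels and SEs beside log2 fold changes. A gene was called at a Benjamini-Hochberg adjusted p under 0.1. Levels are normalized counts, scaled by the TMM method to a common depth. Cells were transfected by the well and the 3 replicates of a genotype come from the same clone, so the p-values measure the spread between these libraries. Stag2 was at 663, 739 and 675 normalized counts in Stag2-/- siGLO compared with 2329, 2334 and 2329 in wild-type siGLO, and Stag1 was at 517, 456 and 353 in wild-type siStag1. In Stag2-/- siStag1 Stag1 was at 667, 781 and 629, compared with 1875, 2204 and 1936 in Stag2-/- siGLO. Stag2 in Stag2-/- siStag1 was called higher than in Stag2-/- siGLO (log2 fold change 0.39) and lower than in wild-type siGLO (-1.36). The siStag1 log2 fold change of Stag1 was -1.53 in Stag2-/- cells and -2.28 in wild-type cells, a difference of 0.75 (edgeR adjusted p = 0.254, or 0.0253 with the replicate number as a block), and the part of this difference in the results on siStag1 was not tested. Stag1 was at 1826, 2368 and 1875 in Stag1-/- siGLO against 2288, 2137 and 2012 in wild-type siGLO, which does not check that label because the line carries an in-frame deletion within the gene. In bulk RNA, fewer cells of a type and less RNA per cell cannot be told apart.

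Summed levels of 7 mESC markers were 78397 to 84032 normalized counts in wild-type siGLO, 60133 to 71361 in Stag1-/- siGLO, 70029 to 73748 in wild-type siStag1, 54688 to 68849 in Stag2-/- siGLO and 36139 to 44960 in Stag2-/- siStag1. Those of 7 primitive and visceral endoderm markers were 1692 to 1914, 179 to 283, 1668 to 1907, 253 to 484 and 258 to 418 in the same order, with Afp at 0 in all 3 Stag1-/- siGLO libraries. The 3 neural markers summed to 1097 to 1364 in wild-type siGLO, 996 to 1241 in Stag1-/- siGLO, 1146 to 1313 in wild-type siStag1, 1545 to 3161 in Stag2-/- siGLO and 2190.1 to 4103 in Stag2-/- siStag1. The 3 mesoderm markers summed to at most 483 and the 7 feeder fibroblast markers to at most 697 in any library, with Dcn at 0 in the wild-type siGLO and Stag1-/- siGLO libraries. Of the 7 mESC markers, 1 was called lower than in wild-type siGLO in Stag1-/- siGLO, 4 in Stag2-/- siGLO, 7 in Stag2-/- siStag1 and none in wild-type siStag1. All 4 endoderm markers that passed the filter were called lower in Stag1-/- siGLO, Stag2-/- siGLO and Stag2-/- siStag1 and none in wild-type siStag1, while 2 of the 3 neural markers, Pax6 and Nes, were called higher in Stag2-/- siGLO and Stag2-/- siStag1 and the third, Sox1, lower in Stag1-/- siGLO. Of the 3 mesoderm markers, T was called higher and Eomes lower in both Stag2-/- siGLO and Stag2-/- siStag1. Of the 7 feeder fibroblast markers 5 passed the filter, and Col3a1 was called higher in Stag2-/- siGLO (log2 fold change 2.10, or 0.61 without its replicate 1) and Stag2-/- siStag1 (1.98, or 0.65 without its replicate 1) and Pdgfrb lower in Stag2-/- siGLO (-0.81, or -0.42 without wild-type siGLO replicate 3). With 1 library left out these calls were lost in 4, 4 and 5 of 6 fits. The part of these differences in the results on the members was not tested.

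Levels per kilobase of exon, as CPM per kb in wild-type siGLO, put the fatty acid genes at both ends of the order. Scd2, a stearoyl-CoA desaturase, was highest at 200.2, followed by Acly, which splits citrate into acetyl-CoA, at 138. Hmgcs1, which makes HMG-CoA, was at 91.2, and Fasn, the fatty acid synthase, at 78.5. Insig1 was at 71.7, Srebf2 at 55.0, Mvd at 52.4 and Scd1 at 50.5. The middle of the order held Fdps (40.8), Fdft1 (39.2), Elovl6 (38.5), Cyp51 (35.0), Sqle (26.7), Pmvk (25.5), Msmo1 (23.7), Fads2 (22.3), Fads1 (19.1), Dhcr7 (18.8), Srebf1 (18.1), Idi1 (17.5), Stard4 (13.4), Acaca (11.6), Nsdhl (11.3), Ebp (10.4) and Mvk (10.3). The lowest were Lss (8.97), Sc5d (6.83), Tm7sf2 (5.28), Hsd17b7 (3.65) and Acss2 (1.25), the last a synthetase that makes acetyl-CoA from acetate. In all, 10 members share stretches of a read's length, 150 bases, with other annotated genes, so their counts are uncertain: Acaca with Gm5182, Fdps with Gm43738, Idi1 with Gm13502, Hmgcs1 with Gm48342, Tm7sf2 with Vps51, Fdft1 with Ctsb, Scd1 with Scd3, Acss2 with Acss2os, Cyp51 with Akap9 and Lss with 4930483K19Rik.

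RefSeq promoters (GRCm38.p6, 250 bases before to 50 after each start) were given for 23 of the 30 members, the entries used here not including Fdps, Fdft1, Sqle, Stard4, Scd1, Scd2 and Fads1. All 16 sterol members with a promoter held CCAAT, in either orientation, at 1 or more of their starts, as did 4 of 7 fatty acid members, 41.1% of all 27025 genes with a promoter and 42.8% of the 11398 of these that were tested. CCAAT is the box bound by NF-Y, a factor known to act beside SREBPs. TCACNCCAC, a form of the sterol regulatory element, was found in Hmgcs1 and in no other of the 23 members, against 1.44% of all genes and 1.5% of those tested, which says only that these letters were not in the other windows. CACGTG was found in 4 sterol members (Hsd17b7, Sc5d, Dhcr7 and Insig1) and in no fatty acid member, against 8.09% of all genes and 11.6% of those tested. The stretches shown end at the last base before the start, and capitals mark CCAAT or its reverse complement ATTGG and, in Hmgcs1, also TCACCCCAC at 137 to 129 bases before the start. They are given for the member with the sterol element (Hmgcs1, chr13:119690101-119690350, plus strand), for a member with 5 CCAAT boxes (Mvk, chr5:114444089-114444268, plus strand), for Mvd (chr8:122443423-122443522, minus strand) and Ebp (chrX:8193513-8193612, minus strand), which were among the 4 sterol members that fell furthest in Stag2-/- siStag1, and for Fasn (chr11:120824548-120824647, minus strand), which was called lower in no comparison.
Hmgcs1: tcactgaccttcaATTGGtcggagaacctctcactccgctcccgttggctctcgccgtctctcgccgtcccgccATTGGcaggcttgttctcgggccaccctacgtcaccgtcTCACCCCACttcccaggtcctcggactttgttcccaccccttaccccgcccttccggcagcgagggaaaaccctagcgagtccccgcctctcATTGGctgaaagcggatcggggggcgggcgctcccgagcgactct
Mvk: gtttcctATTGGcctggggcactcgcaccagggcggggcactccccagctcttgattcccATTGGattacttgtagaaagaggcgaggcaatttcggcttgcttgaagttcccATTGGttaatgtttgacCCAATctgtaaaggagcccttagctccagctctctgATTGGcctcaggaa
Mvd: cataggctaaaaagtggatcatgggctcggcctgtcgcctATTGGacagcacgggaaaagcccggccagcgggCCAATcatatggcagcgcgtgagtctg
Ebp: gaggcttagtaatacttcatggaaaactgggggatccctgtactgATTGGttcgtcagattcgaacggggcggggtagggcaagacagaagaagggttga
Fasn: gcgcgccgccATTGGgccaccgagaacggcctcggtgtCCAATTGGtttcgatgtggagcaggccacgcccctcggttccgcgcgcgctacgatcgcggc
In Fasn the run of capitals holds 2 overlapping matches, 1 on each strand.

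The comparison of each condition with wild-type siGLO asks which of these genes respond to stable loss of either STAG protein, to acute depletion of STAG1, and to both together. The 4 comparisons share the wild-type siGLO libraries, so they are not independent. Called members were mostly lower, and mostly in Stag2-/- cells: 4 lower in Stag1-/- siGLO (9.93% of all genes were lower there), 20 lower in Stag2-/- siGLO (14.4%), none in wild-type siStag1 (0.145%), and 20 lower (21.3%) with 1 higher (22.6%) in Stag2-/- siStag1.

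**Figure D1:**
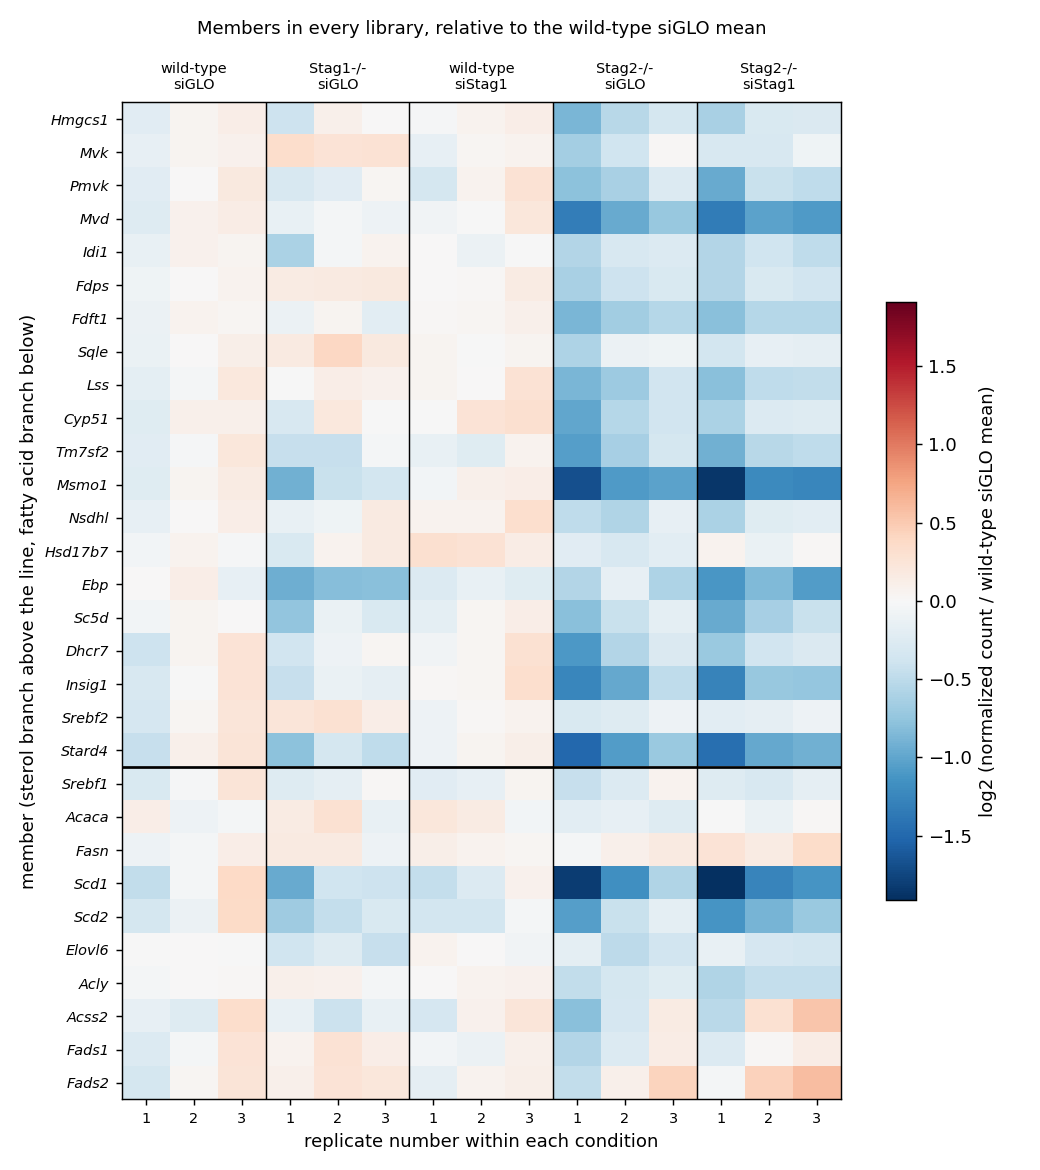
Normalized count of each of the 30 members in each of the 15 libraries, as log2 relative to the wild-type siGLO mean (columns: replicates 1 to 3 of each condition; blue below, red above the mean). All 3 Stag2-/- siGLO and all 3 Stag2-/- siStag1 libraries are blue for Mvd, Msmo1, Insig1, Stard4 and Scd1, while Fasn is red in all 3 Stag2-/- siStag1 libraries.

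Most of the sterol members were lower in Stag2-/- siGLO than in wild-type siGLO. Of these 20 genes, 16 were called lower and none higher, with a branch median log2 fold change of -0.55. Over all genes tested, 14.4% were called lower and 13.9% higher, and the median was 0.01. All 20 sterol members had a negative log2 fold change. The 3 Stag2-/- siGLO libraries lay below all wild-type siGLO libraries for 15 of the 20, against 18.5% of all genes.

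The largest fall of the branch was that of Msmo1 (chr8:64718139-64733792, mm10), the C-4 methylsterol oxidase. It was at 791, 1192 and 1247 normalized counts in the Stag2-/- siGLO replicates in order, where wild-type siGLO had 2162, 2631 and 2815. Every Stag2-/- siGLO library was below every wild-type siGLO library, and the log2 fold change was -1.24 with an SE of 0.19 (adjusted p = 3.05e-04). Stard4, a carrier that moves cholesterol between membranes, was at 458, 622 and 795 against 962, 1397 and 1548, again without overlap, and the log2 fold change was -1.06 with an SE of 0.20 (adjusted p = 0.0016). Mvd (chr8:122433601-122443422), the decarboxylase of the mevalonate steps, was at 675, 865 and 1025 against 1425, 1787 and 1874. Its groups did not overlap either, and its log2 fold change was -0.99 with an SE of 0.14 (adjusted p = 1.63e-04). Insig1 (chr5:28071363-28078662), the sterol sensor partner that retains SCAP and itself a target of SREBPs, was at 1632, 1966 and 2747 against 3130.2, 3842 and 4623, a log2 fold change of -0.87 with an SE of 0.19 (adjusted p = 0.00415). Its highest Stag2-/- siGLO library was below its lowest wild-type siGLO library. These 4 calls held in edgeR when each of the 6 libraries of the comparison was left out in turn.

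In the mevalonate steps, 5 of 6 members were called lower. Hmgcs1, which commits acetyl units to the pathway, was at 4944 ± 914 normalized counts in Stag2-/- siGLO against 7296 ± 877 in wild-type siGLO (mean ± SD, n = 3; log2 fold change -0.56). The kinase Pmvk was at 525 ± 101 against 761 ± 104 (-0.54), the isomerase Idi1 at 823 ± 91.2 against 1065 ± 86.6 (-0.37), and Fdps, which makes farnesyl diphosphate, at 2224 ± 246 against 2993 ± 157 (-0.43). Mvk, the kinase before Pmvk, missed the threshold at 386 ± 90.8 against 479 ± 41.6 (log2 fold change -0.31, edgeR adjusted p = 0.133), but passed with the replicate number as a block (-0.32, adjusted p = 0.0401). Replicate 3 of Stag2-/- siGLO overlapped the wild-type siGLO libraries for Mvk, at 485 against 431, 498 and 507.

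In the squalene steps, Fdft1, the squalene synthase, fell from 2885 ± 199 to 1793 ± 209.6 normalized counts (log2 fold change -0.69) and Lss, which closes the sterol rings, from 1685 ± 232 to 1088 ± 195 (-0.63). Sqle, the epoxidase between them, was at 1712, 2392 and 2424 in Stag2-/- siGLO compared with 2364, 2593 and 2782 in wild-type siGLO. Only its replicate 1 stood apart from the wild-type siGLO range, and it missed the threshold (log2 fold change -0.25, edgeR adjusted p = 0.148), but passed with the replicate block (adjusted p = 0.0401). Of the 8 members that turn lanosterol into cholesterol, 7 were called lower. Besides Msmo1 these were the demethylase Cyp51 (2695 ± 340.3 to 1768 ± 379, log2 fold change -0.61), the reductase Tm7sf2 (405 ± 61.7 to 259 ± 63.2, -0.65) and the dehydrogenase Nsdhl (560.0 ± 55.5 to 426 ± 67.2, -0.39). They also included the isomerase Ebp (418 ± 40.1 to 311 ± 54.3, -0.43), the desaturase Sc5d (579 ± 21.9 to 425 ± 89.1, -0.45) and the last enzyme of the route, Dhcr7 (1909 ± 420.4 to 1253 ± 346, -0.61). Hsd17b7, the ketosteroid reductase, was not called, at 275 ± 10.3 against 324 ± 13.8 (log2 fold change -0.24, edgeR adjusted p = 0.189, or 0.151 with the block).

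Neither SREBP gene was called in this comparison. Srebf2 was at 5600.2, 5789 and 6403 normalized counts in Stag2-/- siGLO compared with 5516, 7057 and 8062 in wild-type siGLO. The groups overlapped, and the log2 fold change was -0.21 with an SE of 0.11 (adjusted p = 0.177), which passed the threshold only with the replicate number as a block (-0.21, adjusted p = 0.0826) or without wild-type siGLO replicate 1 (-0.35). Srebf1, placed with the fatty acid branch, was at 1315, 1490.3 and 1858 against 1458, 1758 and 2119.6, and the log2 fold change was -0.19 with an SE of 0.14 (adjusted p = 0.342) and overlapping groups. It too passed with the block (-0.19, adjusted p = 0.0747).

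The fatty acid branch was divided in Stag2-/- siGLO: 4 of 10 members were called lower and none higher, against 14.4% and 13.9% of all genes. The branch median log2 fold change was -0.24. Scd1 (chr19:44394455-44407879), a stearoyl-CoA desaturase, was at 1219.9, 1906 and 2889 normalized counts against 3101, 4200.0 and 5609.8 in wild-type siGLO. The groups did not overlap, and the log2 fold change was -1.10 with an SE of 0.28 (adjusted p = 0.012). Scd2, its neighbouring paralog, was at 9214, 14229.7 and 16791 against 15055, 17661 and 24441, with overlap and a log2 fold change of -0.51 with an SE of 0.20 (adjusted p = 0.082). That call was lost without wild-type siGLO replicate 3 (-0.29), without Stag2-/- siGLO replicate 1 (-0.30), without wild-type siGLO replicate 2 (-0.56) and without Stag2-/- siGLO replicate 2 (-0.55). Elovl6, which lengthens palmitate, was at 3775, 3049 and 3338 against 4314, 4351 and 4278, below it in every library, and the log2 fold change was -0.35 with an SE of 0.09 (adjusted p = 0.0111). Acly was at 9175, 10011 and 10775 against 12367, 12761 and 12861, also without overlap, and the log2 fold change was -0.34 with an SE of 0.07 (adjusted p = 0.00427).

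Fasn and Acaca, the core enzymes of fatty acid synthesis, were not among the members called without the block. Fasn was at 14583, 16029 and 16854 normalized counts in Stag2-/- siGLO compared with 13991, 14538 and 16398 in wild-type siGLO (log2 fold change 0.08, edgeR adjusted p = 0.577), with overlapping groups. Acaca, the acetyl-CoA carboxylase before it, was at 3002, 3100.2 and 2913 against 3774, 3240.3 and 3355 (-0.20, adjusted p = 0.189), below in every library, and passed with the block (adjusted p = 0.0955). The polyunsaturated fatty acid desaturases Fads1 (1399.6 ± 349 against 1604 ± 294, log2 fold change -0.20) and Fads2 (1339.5 ± 397 against 1279 ± 249.7, 0.07) and the synthetase Acss2 (184 ± 59.8 against 222 ± 50.6, -0.27) overlapped between groups.

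**Figure D2:**
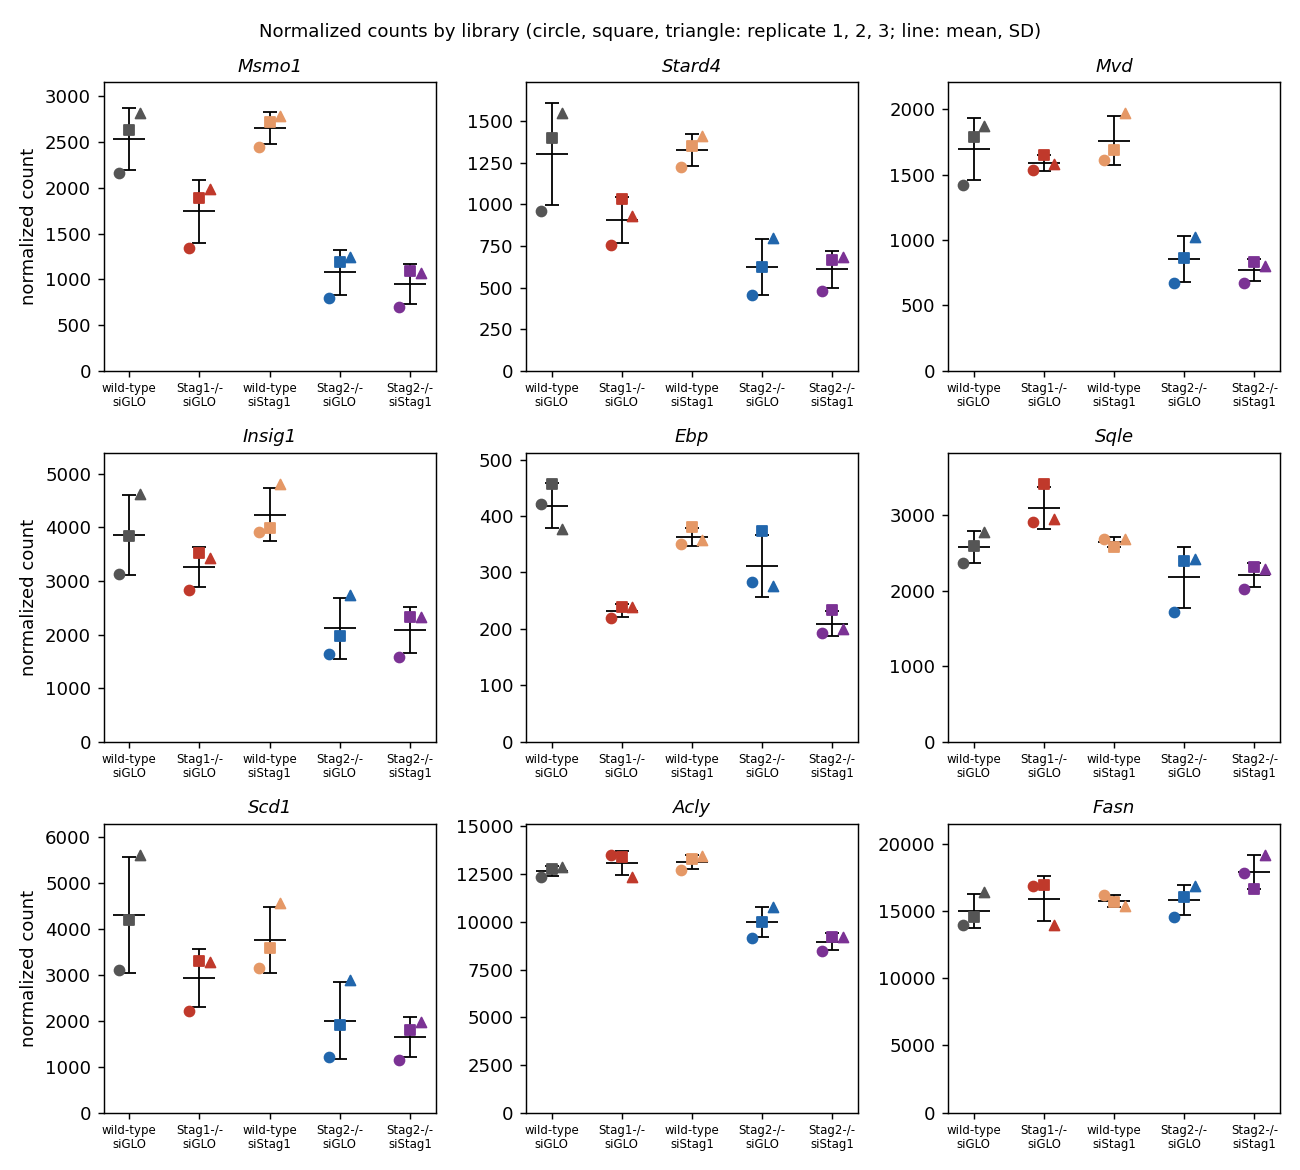
Normalized counts (y axis, from 0) of 9 members in each library of the 5 conditions (x axis). Circles, squares and triangles are replicates 1, 2 and 3, and black lines the mean and SD; for Msmo1, Stard4, Mvd, Insig1, Scd1 and Acly no Stag2-/- siGLO library reaches any wild-type siGLO library, and Fasn groups overlap.

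Leaving out each library in turn gave 13 to 22 called members in this comparison, the lowest without wild-type siGLO replicate 2, and 10 of the 16 sterol calls and 3 of the 4 fatty acid calls held in all 6 such fits. The sterol calls lost in 1 or more of them were Pmvk, Idi1, Nsdhl, Ebp, Sc5d and Dhcr7. Sc5d was lost in 5 of the 6, with a log2 fold change of -0.30 without Stag2-/- siGLO replicate 1, and without wild-type siGLO replicate 2 all 6 were lost, from -0.58 (Dhcr7) to -0.33 (Idi1). Within replicate numbers, the sterol median of Stag2-/- siGLO minus wild-type siGLO was -0.68, -0.60 and -0.45 on the log2 scale for numbers 1, 2 and 3, with 19, 20 and 20 of the 20 members lower. The fatty acid medians were -0.31, -0.23 and -0.20, with 9, 8 and 8 of 10 lower. Genes of chromosome 8, which holds Msmo1 and Mvd, had a median log2 fold change of -0.21 over 761 genes, and the 33 genes within 5 Mb of Msmo1 had -0.20. Chromosome X, which holds Ebp and Nsdhl, had a median of 0.12 over 519 genes, and chromosome 15, with Sqle and Srebf2, had 0.03 over 571 genes. The 4 tested genes of chromosome Y, which holds no member, had a median of -2.23. Against wild-type siGLO their median was -2.14 in Stag2-/- siStag1 and 0.26 in Stag1-/- siGLO.

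In Stag1-/- siGLO few members were called: 3 of 20 sterol members and 1 of 10 fatty acid members were lower and none higher, against 9.93% lower and 10.1% higher of all genes. The branch medians were -0.09 and -0.04. Ebp (chrX:8185329-8193512), the sterol isomerase, was at 219, 239 and 239.6 normalized counts in Stag1-/- siGLO against 422, 457 and 377 in wild-type siGLO. The groups did not overlap, and the log2 fold change was -0.85 with an SE of 0.13 (adjusted p = 4.70e-04). The 58 genes within 5 Mb of Ebp had a median log2 fold change of -0.18. Msmo1 was at 1344, 1892 and 1989.6 against 2162, 2631 and 2815, below it in every library, and the log2 fold change was -0.54 with an SE of 0.19 (adjusted p = 0.0625). The 33 genes within 5 Mb of Msmo1 had a median of -0.42 here, and chromosome 8 had -0.19, and their part in its fall was not tested. Stard4 was at 758, 1032 and 932 against 962, 1397 and 1548, with overlap and a log2 fold change of -0.52 with an SE of 0.19 (adjusted p = 0.0886). Elovl6 was at 3317, 3635 and 3176 against 4314, 4351 and 4278, without overlap, and the log2 fold change was -0.35 with an SE of 0.09 (adjusted p = 0.013).

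The calls of Ebp and Elovl6 held without each library in turn, and leaving out 1 library gave 2 to 5 called members. Msmo1 was no longer called without Stag1-/- siGLO replicate 1 (log2 fold change -0.39), wild-type siGLO replicate 2 (-0.51) or wild-type siGLO replicate 3 (-0.46). Stard4 was no longer called without wild-type siGLO replicate 2 (-0.47) or 3 (-0.38), or without Stag1-/- siGLO replicate 1 (-0.41) or 3 (-0.54). With the replicate number as a block, 8 members were lower and 4 higher, against 15.3% lower and 15.3% higher of all genes in that fit. The 4 were Mvk (0.30, adjusted p = 0.0633), Fdps (0.18, 0.07), Sqle (0.26, 0.0437) and Srebf2 (0.23, 0.0674). Those added among the lower were Tm7sf2 (-0.29, 0.0733), Sc5d (-0.39, 0.0181), Scd1 (-0.53, 0.00232) and Scd2 (-0.45, 0.00279), each with its edgeR adjusted p. Srebf2 without the block was at 8068, 8377 and 7537 normalized counts against 5516, 7057 and 8062, a log2 fold change of 0.22 with an SE of 0.11 (adjusted p = 0.21) in edgeR, and it also passed without wild-type siGLO replicate 3 (0.35). Srebf1 was at 1505, 1573 and 1803 against 1458, 1758 and 2119.6, a log2 fold change of -0.13 with an SE of 0.14 (adjusted p = 0.597) in edgeR.

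Set directly against each other, the knockout lines differed in the sterol branch. In Stag1-/- siGLO relative to Stag2-/- siGLO, 14 sterol members were called higher and 1 lower, and 2 fatty acid members higher, against 12.7% higher and 12.9% lower of all genes. The median log2 difference was 0.49 for the sterol branch and 0.10 for the fatty acid branch. Mvd was at 1532, 1651 and 1585 normalized counts in Stag1-/- siGLO against 675, 865 and 1025 in Stag2-/- siGLO, every library above, and the log2 difference was 0.89 with an SE of 0.14 (adjusted p = 4.02e-04). For Lss the levels were 1673, 1842 and 1778 against 920.5, 1042 and 1303, without overlap (0.70 ± 0.13, adjusted p = 0.00178). The log2 difference was 0.69 with an SE of 0.19 (adjusted p = 0.0177) for Msmo1 and 0.63 with an SE of 0.19 (adjusted p = 0.0289) for Insig1, also without overlap. Srebf2 was among the members called, at 7994 ± 425 against 5931 ± 420.0 (log2 difference 0.43, edgeR adjusted p = 0.012). With the replicate block Pmvk (0.39, adjusted p = 0.0058), Tm7sf2 (0.36, 0.0294), Scd1 (0.60, 8.46e-04) and Fads1 (0.38, 0.0117) passed too.

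Ebp was the member called lower, at 219, 239 and 239.6 normalized counts in Stag1-/- siGLO against 284, 374 and 277 in Stag2-/- siGLO (log2 difference -0.42 ± 0.13, adjusted p = 0.0394). It is named outside the rule, after its value was seen. The X chromosome had a median of -0.17 here, and the genes within 5 Mb of Ebp had -0.14. The call was lost without Stag1-/- siGLO replicate 1 (-0.38) or Stag2-/- siGLO replicate 2 (-0.27). In the fatty acid branch Acly was at 13494, 13403 and 12327 against 9175, 10011 and 10775 (log2 difference 0.39 ± 0.07, adjusted p = 0.0019) and Acaca at 3863, 4211 and 3119.6 against 3002, 3100.2 and 2913 (0.31 ± 0.11, adjusted p = 0.05). Neither pair of groups overlapped. For Acaca the call was lost without Stag1-/- siGLO replicate 1 (0.29) or 2 (0.22) or Stag2-/- siGLO replicate 3 (0.29). In all, 13 of the 30 members lay above Stag2-/- siGLO in every Stag1-/- siGLO library, against 15.7% of all genes. Between 11 and 20 members were called when 1 library was left out, the lowest without Stag1-/- siGLO replicate 2. Of the 15 sterol calls 9 held in every one of these fits, while Nsdhl, Dhcr7 and Stard4 lost theirs in 4 of 6, Hmgcs1 in 2 and Cyp51 in 1. Within replicate numbers 1, 2 and 3, 17, 19 and 18 of the 20 sterol members were higher in Stag1-/- siGLO, with medians of 0.70, 0.55 and 0.32.

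Acute depletion of STAG1 in wild-type cells gave no call among the 30 members, neither with edgeR nor with DESeq2, and no member had an unadjusted p under 0.05, against 922 of the 14508 genes tested. Few genes were called in this comparison at all, 0.103% higher and 0.145% lower of those tested. The members' log2 fold changes ran from -0.24 to 0.25, with SEs of 0.07 to 0.28, and the branch medians were 0.05 and 0.01. The ends of that range were Scd2, at 14949, 14985 and 18522 normalized counts in wild-type siStag1, and Hsd17b7, at 402, 394 and 357 against 313, 339.6 and 319 in wild-type siGLO. Hsd17b7 was above in every library, with an edgeR adjusted p of 0.817. Srebf2 was at 6446, 6994 and 7236 (log2 fold change 0.00, SE 0.11, edgeR adjusted p = 0.999) and Srebf1 at 1533, 1588 and 1845 (-0.10, SE 0.14, adjusted p = 0.999). A missed threshold does not show that these genes were alike in both groups.

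With siStag1 in Stag2-/- cells, 16 sterol members were lower than in wild-type siGLO and none higher, with a median log2 fold change of -0.52. In the fatty acid branch 4 were lower and 1 higher, with a median of -0.14. Of all genes 21.3% were called lower and 22.6% higher, so the background was larger here than in the other comparisons. For 20 of the 30 members every Stag2-/- siStag1 library was below every wild-type siGLO library, against 23.3% of all genes. Msmo1 was at 702, 1086 and 1066 normalized counts, a log2 fold change of -1.41 with an SE of 0.19 (adjusted p = 3.22e-05) in edgeR. Mvd was at 673, 833 and 803 (-1.14 ± 0.14, adjusted p = 1.46e-05), Stard4 at 482, 664 and 686 (-1.09 ± 0.20, adjusted p = 4.84e-04) and Ebp at 193, 234 and 199 (-1.0 ± 0.13, adjusted p = 3.27e-05). None of these overlapped the wild-type siGLO levels given above, and Ebp was at 422, 457 and 377 there. Chromosome 8 had a median log2 fold change of -0.23 and X of 0.13, and the genes within 5 Mb of Ebp had -0.19.

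The remaining sterol calls in Stag2-/- siStag1 had log2 fold changes between -0.89 (Insig1) and -0.33 (Nsdhl), and Mvk, Sqle, Hsd17b7 and Srebf2 were not called, though Sqle passed with the replicate block (-0.22, adjusted p = 0.0499). With each library left out 16 to 22 members were called, and the sterol calls lost were Cyp51 in 5 of 6 fits, Dhcr7 in 4, and Hmgcs1 and Nsdhl in 3 each. Without Stag2-/- siStag1 replicate 1 the log2 fold changes were -0.25 for Cyp51, -0.33 for Dhcr7, -0.29 for Hmgcs1 and -0.21 for Nsdhl, compared with -0.36, -0.44, -0.39 and -0.33 with all libraries. Srebf2 was at 6011, 6112 and 6436 normalized counts (log2 fold change -0.15 ± 0.11, adjusted p = 0.29 in edgeR), with overlap, and passed without wild-type siGLO replicate 1 (-0.29). Among fatty acid genes Scd1 was at 1144, 1798 and 1971 (-1.39 ± 0.28, adjusted p = 0.00124) and Scd2 at 8756, 10294 and 11691 (-0.89 ± 0.20, adjusted p = 0.00236). Acly was at 8464, 9225 and 9193 (-0.50 ± 0.07, adjusted p = 8.55e-05) and Elovl6 at 3913, 3450.2 and 3389.7 (-0.27 ± 0.09, adjusted p = 0.0258), all below wild-type siGLO in every library. The Elovl6 call was lost without Stag2-/- siStag1 replicate 3 (log2 fold change -0.23). Fasn was the member called higher, at 17862, 16663 and 19164 against 13991, 14538 and 16398, every library above (log2 fold change 0.26 ± 0.09, adjusted p = 0.0379). It is named after its value was seen, and the call was lost without wild-type siGLO replicate 1 (0.21) or 2 (0.23) or Stag2-/- siStag1 replicate 3 (0.21). Fads2, at 1244, 1729.8 and 1920.4 against 1015, 1311 and 1512, missed the threshold (0.35 ± 0.19, adjusted p = 0.173) and passed with the replicate block (0.35, adjusted p = 0.0117). Srebf1 was at 1494, 1432 and 1587 (log2 fold change -0.24 ± 0.14, adjusted p = 0.185 in edgeR) and passed with the block (-0.23, adjusted p = 0.0281) or without wild-type siGLO replicate 1 (-0.37).

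**Figure D3:**
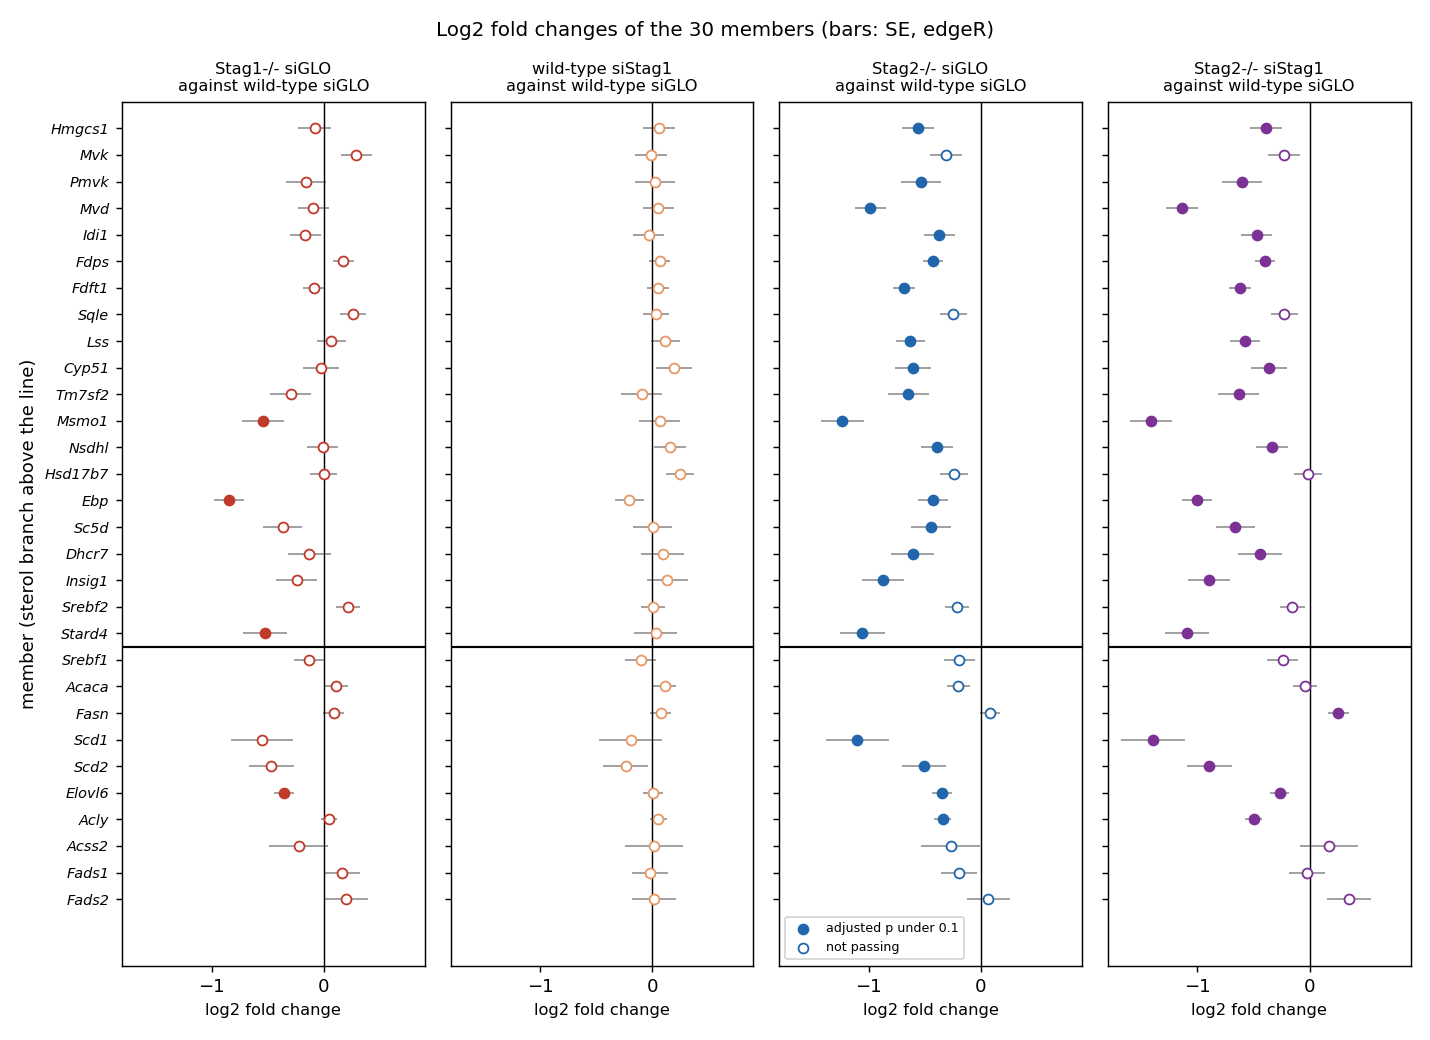
Log2 fold change of each member (points) with its SE (bars) from edgeR in the 4 comparisons with wild-type siGLO; filled points passed an adjusted p under 0.1. Of the 20 sterol members above the line, 16 are filled and negative in both Stag2-/- panels, 3 in the Stag1-/- siGLO panel and none in the wild-type siStag1 panel.

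Within Stag2-/- cells, siStag1 moved 1 member past the threshold, Ebp, against 2.98% higher and 3.39% lower of all genes. It was at 193, 234 and 199 normalized counts with siStag1 and 284, 374 and 277 with siGLO, without overlap, a log2 fold change of -0.58 with an SE of 0.14 (adjusted p = 0.0247) in edgeR. The call was lost without Stag2-/- siGLO replicate 2 (-0.42), without Stag2-/- siStag1 replicate 3 (-0.54) and when only the 6 libraries compared were fitted (-0.59). The other 19 sterol members ran from -0.22 to 0.25 and the fatty acid members from -0.39 to 0.44, with branch medians of 0.03 and 0.12. With the replicate number as a block, 2 members were lower and 2 higher, against 6.91% and 7.22% of all genes in that fit. Besides Ebp these were Scd2, lower (-0.36, adjusted p = 0.0247), and Cyp51 (0.26, 0.0435) and Fads2 (0.30, 0.0865), higher.

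Whether siStag1 acted differently on the members in Stag2-/- and in wild-type cells was tested as an interaction. No member was called by edgeR or DESeq2, and 0.0207% of all genes were called higher and 0.138% lower. No member had an unadjusted p under 0.05, against 842 of the 14508 genes tested. The differences of log2 fold change ran from -0.37 (Ebp) to 0.43 (Acss2), with SEs of 0.10 to 0.40. Their medians were -0.05 in the sterol branch and 0.07 in the fatty acid branch.

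The members also varied together between replicates. Replicate 1 was the lowest of the 3 libraries for 19 of the 20 sterol members in wild-type siGLO, 17 in Stag1-/- siGLO, 15 in wild-type siStag1, 17 in Stag2-/- siGLO and 18 in Stag2-/- siStag1. Among all genes tested, replicate 1 was the lowest for 33.6% to 44.1% per condition. In the fatty acid branch it was the lowest for 7, 5, 6, 8 and 6 of 10 members in the same order. The sterol median relative to the wild-type siGLO mean was -0.20, 0.05 and 0.13 on the log2 scale in replicates 1, 2 and 3 of wild-type siGLO and -0.84, -0.55 and -0.31 in those of Stag2-/- siGLO. The nearest libraries of these conditions were replicate 3 of Stag2-/- siGLO and replicate 1 of wild-type siGLO, and the medians of the 2 conditions did not overlap. In Stag2-/- siStag1 the sterol medians were -0.75, -0.40 and -0.45, in Stag1-/- siGLO -0.31, -0.04 and 0.02, and in wild-type siStag1 -0.03, 0.03 and 0.13. What the replicate numbers share is not given in the sources used here, and its part in this pattern was not tested.

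**Figure D4:**
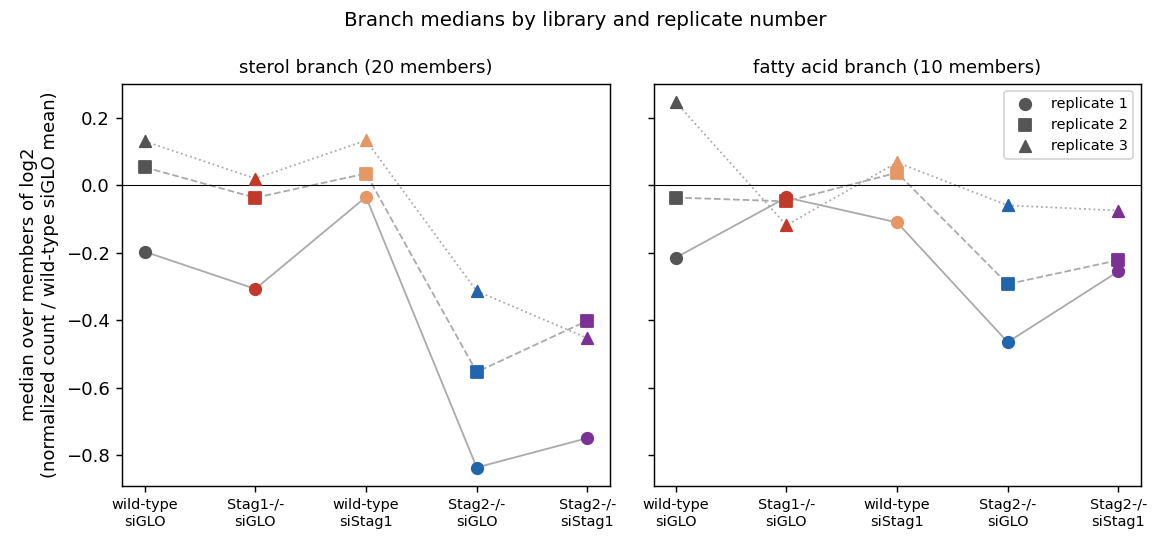
Median over the members of each branch of log2 (normalized count over the wild-type siGLO mean) in every library; grey lines join libraries of the same replicate number across conditions. In the sterol branch replicate 1 is lowest in every condition, and the Stag2-/- libraries lie from -0.84 to -0.31, below the wild-type siGLO libraries at -0.20 to 0.13.

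Other genes of the same pathways, listed by function, were also tested in Stag2-/- siGLO. Of 45 listed, 43 were tested, and 14 were lower and 1 higher than in wild-type siGLO, against 14.4% and 13.9% of all genes. Of 8 SREBP processing genes, 2 were lower: the site-1 protease Mbtps1 (-0.21) and Erlin1 (-0.34), an endoplasmic reticulum protein. Of 7 other sterol and isoprenoid enzymes, Acat2, a thiolase that feeds the pathway, fell (-0.40), and the median of the 7 was -0.01. Of 12 genes of sterol uptake, storage and efflux, 4 fell, the exporters Abca1 (487 ± 10.6 to 158 ± 38.9 normalized counts, log2 fold change -1.62) and Abcg1 (-0.71), the ubiquitin ligase Mylip (-0.44) and the lipoprotein receptor Scarb1 (-0.54). Abca1, Abcg1 and Mylip are known targets of the liver X receptors, which respond to high sterol levels. Of 18 other fatty acid genes, 16 were tested and 7 fell: Lpin1 (-1.03), Scd3 (-0.84), Elovl7 (-0.65), Me1 (-0.61), Elovl5 (-0.37), Elovl1 (-0.37) and Acacb (-0.28), each a log2 fold change from edgeR. Of these 14 falls, those of Acat2, Abca1, Abcg1, Elovl5, Me1 and Lpin1 held without each library in turn.

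Over the same 43 genes, 9 were lower and 3 higher in Stag1-/- siGLO, against 9.93% and 10.1% of all genes, and 14 were lower and 6 higher in Stag2-/- siStag1, against 21.3% and 22.6%. Not every gene in these counts is named. Abca1 fell in all 4 comparisons with wild-type siGLO, with log2 fold changes of -1.01 in Stag1-/- siGLO, -0.83 in wild-type siStag1 and -2.19 in Stag2-/- siStag1, and was the only listed gene called in wild-type siStag1 (edgeR adjusted p = 0.0893). That call in wild-type siStag1 was lost in all 6 fits without 1 library (log2 fold changes -0.90 to -0.74). Lower in Stag1-/- siGLO were Mbtps1 (-0.29), Erlin1 (-0.36), Erlin2 (-0.40), Elovl5 (-0.27), Elovl7 (-0.60), Me1 (-1.10), Gpam (-0.30) and Lpin1 (-0.71). Higher were Nr1h2 (0.30), Acacb (0.40) and Fads3 (1.02). Without 1 library the calls in Stag1-/- siGLO were lost for Gpam in 5 of 6 fits, Elovl7 in 4, Acacb in 3, and Elovl5 and Nr1h2 in 2 each. The 14 lower in Stag2-/- siStag1 were, besides Abca1, Erlin1 (-0.72), Erlin2 (-0.21), Acat2 (-0.43), Abcg1 (-1.07), Mylip (-0.67), Scarb1 (-0.51), Elovl1 (-0.30), Elovl5 (-0.58), Elovl7 (-0.70), Me1 (-0.69), Mlx (-0.28), Thrsp (-1.60) and Lpin1 (-0.96). Of these Elovl1 lost its call in 5 of 6 fits without 1 library, Erlin2 and Mlx in 4 each and Scarb1 in 3. In Stag2-/- siStag1 the SCAP gene itself was higher (0.46), as were, among others, Npc1 (0.53), Nr1h3 (0.92) and Fads3 (1.17). The calls for Nr1h3 and Npc1 were lost in 4 and 2 of 6 fits without 1 library. Within Stag2-/- cells siStag1 left 2 of the 43 higher and 1 lower, against 2.98% and 3.39% of all genes. Acacb was higher (0.38) and Erlin1 lower (-0.38), and both calls were lost without at least 1 library. In Stag1-/- siGLO relative to Stag2-/- siGLO, 8 of the 43 were higher and 3 lower, against 12.7% and 12.9% of all genes, with Abcg1 (1.14) and Mlxipl (0.89) furthest up and Me1 (-0.49), whose call was lost in 3 of 6 fits without 1 library, furthest down.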

How the data were processed

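PolyA RNA of 15 mESC libraries was read as 150 bp paired ends. STAR was used by the authors to align the reads (mm10), and they deposited raw read counts for each gene. The counting tool, annotation and strand setting are not given in the sources used here, so reads of antisense partners cannot be told apart. Summary lines of the files (unmapped, multimapping, no feature, ambiguous) were left out. The authors tested with DESeq2. Here edgeR 4.0.16 (R 4.3.3) was used: filterByExpr (count 10, total 15), TMM scaling, glmQLFit over all libraries with 1 coefficient for each condition, and glmQLFTest contrasts adjusted over 14508 genes, with a threshold of 0.1. The SE is the log2 fold change over the square root of F. Depth was 14982560 to 19070126 counts a library. Alternatives were DESeq2 1.42.0, its size factors in edgeR, scaling by library size, no filter, a filter of 10 counts in each library, fits to just the groups compared, a threshold of 0.05, a replicate block, and leaving out each library. The tests were checked on simulated data, with counts drawn independently for each library. Of 199 genes given a 2-fold change in Stag1-/- siGLO, 142 were called in the right direction. Of 14110 unchanged genes, 16 were called. No libraries of the same condition were copies of each other (chi-square over degrees of freedom at least 4.03 for every pair within a condition).

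Replicate numbers come from the labels. Same-numbered libraries deviated from their condition means together (mean r 0.31 over 30 pairs, against -0.15 over 60 others, across 11529 genes). Every such pair was above 0.1 in 5 comparisons, and in Stag2-/- siStag1 against wild-type siGLO the lowest was 0.05. Over the 4 conditions of the interaction it was -0.09.

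The members, the other gene lists and the comparisons were chosen with earlier results of these data known. Full statistics are given for the called members of a branch, or for the 4 with the largest change where more were called, and for Srebf1 and Srebf2. Some genes of the other pathway lists are not reported here. Positions are those of GENCODE on mm10, found for 13646 genes by symbol and 770 by an older symbol, with 92 not placed. Promoters are from RefSeq (GRCm38.p6). Plots were made in matplotlib 3.10.9 (Python 3.11.15).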

Additional observations from a re-analysis of the deposited data

How the results depend on the processing

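The number of members called stayed within 1.5 times in 93 of 104 alternative settings, was larger in 3 and smaller in 8. These settings include those of wild-type siStag1 and of the interaction. No member was called there in the main fit, so the count could not become smaller. In Stag1-/- siGLO against wild-type siGLO it was 2 at an adjusted p under 0.05, 12 with the replicate block, and 2 to 5 with each library left out. In Stag2-/- siGLO it was 13 to 22 with each library left out, and in Stag1-/- against Stag2-/- siGLO 11 to 20. In Stag2-/- siStag1 against Stag2-/- siGLO it was 0 when only the libraries compared were fitted, 4 with the replicate block, and 0 to 2 with each library left out. The block changed no other of these counts by over 1.5 times. In Stag2-/- siGLO 25 members were called with it, all lower (19.6% of all genes were lower in that fit and 19.9% higher). In Stag2-/- siStag1 against wild-type siGLO it was 24, with 22 lower (26.3%) and 2 higher (27.5%). In Stag1-/- against Stag2-/- siGLO it was 21, with 20 higher (18.1%) and 1 lower (19.2%). It was 0 in wild-type siStag1 (0.731% higher, 0.896% lower) and for the interaction (0.221% and 0.731%). The branch medians moved by less than the spread between replicates in all 194 alternatives. Srebf1 and Srebf2, which were not called, changed sign in 5 fits: Srebf1 without wild-type siGLO replicate 3 in Stag1-/- siGLO (log2 fold change 0.017) and wild-type siStag1 (0.042), and Srebf2 in wild-type siStag1 without wild-type siGLO replicate 1 (-0.13) or wild-type siStag1 replicate 2 (-0.0079) or 3 (-0.03). With each library left out, Srebf1 ran from -0.25 to 0.017 in Stag1-/- siGLO and from -0.23 to 0.042 in wild-type siStag1, and Srebf2 from -0.13 to 0.13 in wild-type siStag1. The cause was not tested.

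With 3 libraries a condition, the SEs of the log2 fold changes against wild-type siGLO were 0.07 to 0.28, and a missed threshold does not show equality. Both knockouts are single clones, so clone and genotype cannot be told apart.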
